A study of Mus musculus with 5 samples.

Results

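The class I odorant receptor (OR) cluster is the stretch of mouse chromosome 7 in which most class I OR genes lie. Its members were taken as the genes with a symbol starting in Olfr whose first base lies in a window of 4 Mb on chromosome 7 of GRCm38 that spans the cluster, pseudogenes included. This gave 156 genes of the 1407 OR genes and of the 55411 genes in the count tables. They run from 102475154 to 105370900, a span of 2.90 Mb, with 79 on the plus and 77 on the minus strand. The annotation lists 129 of them as protein-coding and 27 as pseudogenes. The nearest OR genes outside, *Olfr521* before and *Olfr693* after, are 2.71 Mb and 1.30 Mb away.

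The libraries were made from neurons of *Olfr151*tm26Mom homozygous mice, a knock-in line in which the neurons that transcribe *Olfr151* also make a green fluorophore. All groups carried this allele. The 3 control pools (1, 2 and 3) came from mice exposed to DMSO alone and the 2 exposed pools (1 and 3) from mice exposed to 5% acetophenone in DMSO, both for 5 h, all of them male and 7 weeks old, with exposed pool 2 not used here. A pool joined fluorescent live cells sorted from the main olfactory epithelium of 4 mice. One field of the labels gives 200 cells per pool where another gives 400, and the study's methods give 200 for the *Olfr151* pools. Files held between 42780403 and 49527380 counts per library. CPM here are counts per library size after edgeR's TMM scaling, in which 3 counts were worth 0.0607 to 0.0718 CPM. Values per library are given for controls in the order of pools 1, 2, 3 and for exposed pools in the order 1, 3. Counts of *Olfr151*, a class II gene on chromosome 9, were 139703, 150234 and 166294 for controls and 103864 and 97297 after exposure. Every library thus held the transcript its sort was built on, and reporter counts lay between 10375 and 17217. The OR genes other than *Olfr151* together gave 84783, 31022 and 61329 counts for controls, 75728 and 123037 after exposure. In exposed pool 3 they exceeded the counts of *Olfr151*.

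Each olfactory sensory neuron transcribes a single OR gene out of the whole repertoire. Mouse OR genes fall into class I, which resembles the receptors of fish and lies mostly around the beta-globin genes, and class II, which is spread over many chromosomes. Class I receptors are mostly found in the dorsal epithelium, and so is *Olfr151*. The cluster holds an enhancer, the J element, that acts on many of its genes, while the transcription factor Bcl11b favours the choice of class II genes.

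The coding sequences show how far the members stand from the receptor that was sorted for. In an alignment of 128 members, the median member shared 54.6% of its bases with the other members, taking the median over them, with a range of 46.1 to 57.1%. The same members shared 40.9 to 47.1% with *Olfr151*, with a median of 44.3%. For the OR genes that follow on chromosome 7 the median share with *Olfr151* was 55.1% (68 genes), and for the OR genes around *Olfr151* on chromosome 9 it was 64.7% (95 genes). All 128 were closer in median to the other members than to the chromosome 9 genes, and for 125 the closest gene of those aligned was another member. The other 3 were *Olfr661*, *Olfr657* and *Olfr658*, named because they are few. *Olfr657* and *Olfr658*, at 0 counts in all libraries, shared 95.8 and 97.1% of their bases with a gene outside the cluster.

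**Figure D1:**
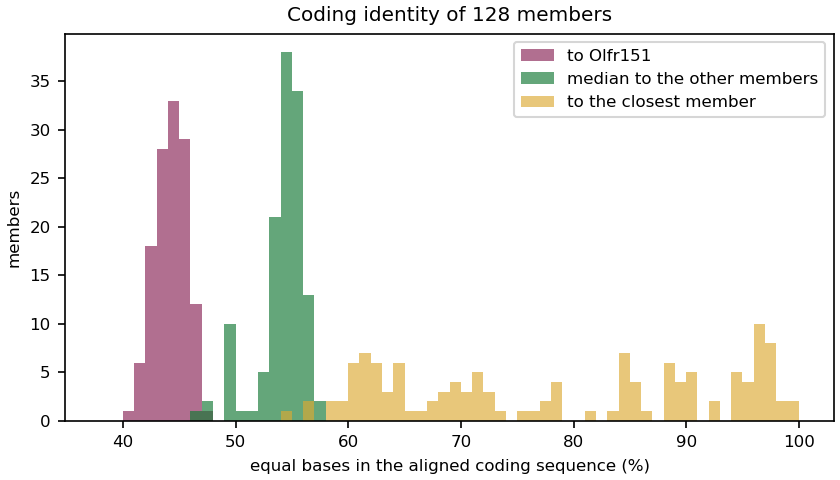
Histogram of the equal bases in the aligned coding sequence (x axis, percent) over 128 members (y axis, number of members), with 1 distribution for *Olfr151*, 1 for the median over the other members and 1 for the closest member. The identity to *Olfr151* ends at 47.1%, and the medians to the other members reach 57.1%.

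Since reads that map to several places were not counted, alike members could lose counts. Runs of 50 bases were compared, the read length that the study's methods give for its *Olfr16* libraries. For the *Olfr151* libraries the methods name no length. The 3 pairs below are shown because they are the most alike among the members with at least 1000 counts in some library, with 74.0% (*Olfr681* and *Olfr683*), 72.4% (*Olfr598* and *Olfr599*) and 71.4% (*Olfr668* and *Olfr669*) equal coding bases. Each window is the 60 aligned coding bases with the most equal bases, in GRCm38, and capitals mark the bases that differ within the pair, 3, 11 and 8 in that order.
Olfr681, chr7:105121603-105121662, plus strand: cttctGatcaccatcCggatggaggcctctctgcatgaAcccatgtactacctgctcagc
Olfr683, chr7:105144091-105144150, minus strand: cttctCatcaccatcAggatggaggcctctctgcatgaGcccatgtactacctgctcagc
Olfr598, chr7:103328569-103328628, plus strand: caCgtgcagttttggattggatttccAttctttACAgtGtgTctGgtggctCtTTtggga
Olfr599, chr7:103338125-103338184, plus strand: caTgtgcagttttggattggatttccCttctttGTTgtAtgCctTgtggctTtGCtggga
Olfr668, chr7:104925031-104925090, minus strand: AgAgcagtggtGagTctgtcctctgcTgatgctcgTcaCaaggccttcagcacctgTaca
Olfr669, chr7:104939200-104939259, plus strand: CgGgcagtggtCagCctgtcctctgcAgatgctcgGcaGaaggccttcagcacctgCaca
None of the 3 pairs shared a run of 50 bases, so reads of that length from one member could be told from those of the other. Over all 156 members, a median of 98.6% of the 50-base runs of the transcripts occurred in no other OR gene. Fewer than 50% of the runs were unique for 4 members (*Olfr688*, *Olfr687*, *Olfr603* and *Olfr680-ps1*, named after their values were seen), all of which were at 0 in every library, and their counts are uncertain. The lowest unique share among the members with at least 1000 counts was 66.1%, for *Olfr638*, and *Olfr681* had 76.6%, with most of its shared runs in *Olfr679*. Some members of the 3 pairs had closer relatives in the cluster. Equal coding bases were 98.5% for *Olfr681* with *Olfr679*, 98.0% for *Olfr598* with *Olfr597*, 96.8% for *Olfr668* with *Olfr666* and 89.2% for *Olfr683* with *Olfr684*. These shared 1128, 352, 328 and 366 runs in that order, and their counts could be too low. *Olfr599* and *Olfr669* were 100% unique.

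Counts of the members were close to all or none. Of the 780 values (156 members in 5 libraries), 658 were 0, 41 were 1 to 3, 48 lay from 4 up to below 1000, and 33 were 1000 or more. In total 79 members had a count in some library and 77 had 0 counts in every library. A count of 0 leaves room for a level worth up to 3 counts in each library. With more than 3 counts in some library there were 62 members, of which 48 passed in a single library. The 27 pseudogenes added 67 counts over all libraries, at most 35 for 1 gene (*Olfr587-ps1*), and every member at 1000 or more was protein-coding.

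The members at 1000 counts or more numbered 5, 2 and 8 for controls, 5 and 13 for exposed pools, and were 28 different genes. Of these, 23 reached 1000 counts in 1 library only, 5 in 2 libraries and none in more. At least 1 other library had 3 counts or fewer for 27 of the 28, and all 4 other libraries did for 16. These high members held 95.6 to 99.9% of the counts of the cluster in a library, and the 698, 223, 1086, 738 and 71 remaining counts (in the order above) came from 15 to 20 other members per library. In control pool 3, 836 of the 1086 were of *Olfr578*.

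**Figure D2:**
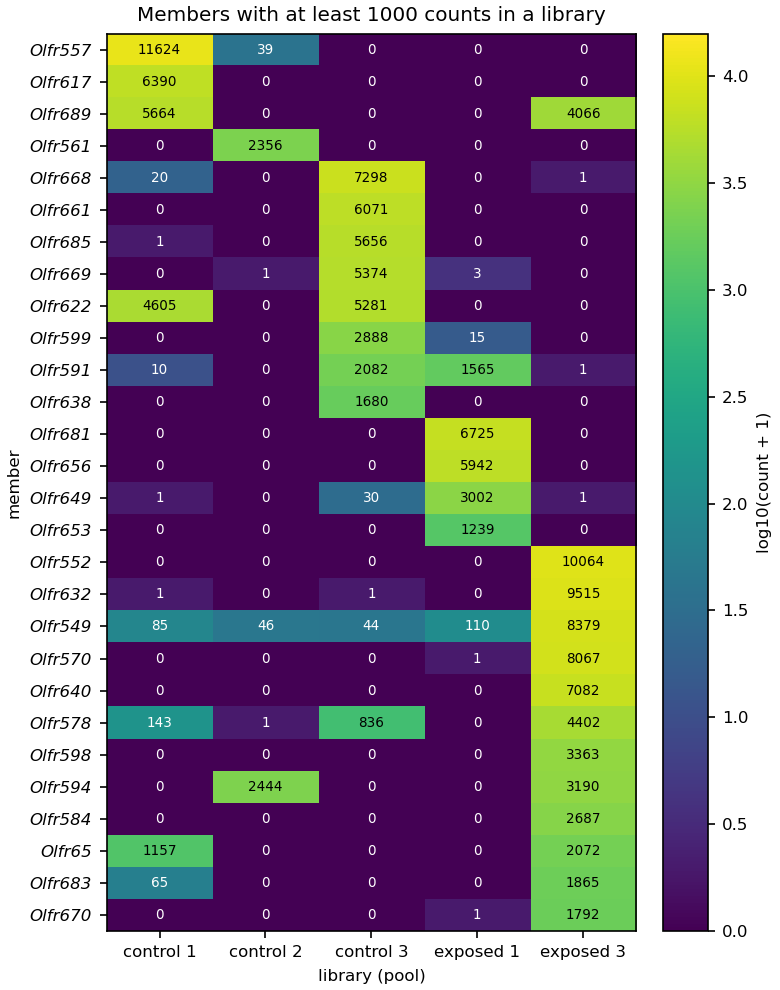
Counts of the 28 members with at least 1000 counts in some library (rows) in control pools 1 to 3 and exposed pools 1 and 3 (columns), coloured by log10(count + 1) with the count printed. Most rows have 1 bright cell, 5 have 2, and *Olfr549* alone has more than 3 counts in all 5 libraries.

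The protein-coding members all encode G protein-coupled receptors of the same family, so the account goes by the libraries that held them. Control pool 1 was led by *Olfr557* with 11624 counts, against 39 in control pool 2 and 0 in control pool 3 and both exposed pools. In the same pool *Olfr617* stood at 6390 counts, with 0 in all 4 remaining libraries. Control pool 2 was led by *Olfr594* with 2444 counts, a gene that also had 3190 in exposed pool 3 and 0 elsewhere. These 3 receptors were thus high in 1 or 2 pools of 4 mice and at 39 counts or fewer in the others of the same condition.

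Control pool 3 was led by *Olfr668*, with 7298 counts, 20 in control pool 1, 1 in exposed pool 3 and 0 in the other 2. *Olfr661* had 6071 counts there and 0 elsewhere. *Olfr669*, the gene that follows *Olfr668* after a gap of 6183 bases, had 5374 counts in the same pool, 1 in control pool 2, 3 in exposed pool 1 and 0 in the others. This was the only pair of neighbours in the cluster, both at 1000 counts or more, in the same library, and it is 1 of the pairs whose sequences are given above. The other alike pairs were split between libraries. *Olfr598* had 3363 counts in exposed pool 3 alone, while *Olfr599* had 2888 in control pool 3 and 15 in exposed pool 1. *Olfr681* had 6725 in exposed pool 1 alone, and *Olfr683* had 1865 in exposed pool 3, 65 in control pool 1 and 0 in the others.

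*Olfr681* also led exposed pool 1. Exposed pool 3 held more high members than any other library and was led by *Olfr552*, with 10064 counts against 0 in the other 4. *Olfr632* had 9515 counts there, 1 in control pools 1 and 3, and 0 in the other 2. *Olfr570* had 8067 in exposed pool 3, 1 in exposed pool 1 and 0 in all controls, and *Olfr640* had 7082 in exposed pool 3 and 0 elsewhere. Exposed pool 1 had 0 or 1 count of each of these 4 receptors, so the high values describe 1 pool and not the condition. *Olfr640* and *Olfr638* overlap the span of the OR gene *Olfr643*, which was at 0 in all libraries. In all, 6 high members overlap another gene, the others being *Olfr617*, *Olfr65*, *Olfr632* and *Olfr683*. Strand was ignored in counting, and the effect of these overlaps on the counts was not tested.

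The 5 members at 1000 counts or more in 2 libraries were named after their values were seen. For *Olfr622*, control pools 1 and 3 held 4605 and 5281 counts, with 0 in the remaining 3 libraries. *Olfr689* had 5664 in control pool 1 and 4066 in exposed pool 3, and *Olfr65* had 1157 and 2072 in the same 2 libraries, with 0 in the others for both. *Olfr591* had 2082 in control pool 3 and 1565 in exposed pool 1, with 10, 0 and 1 in control pool 1, control pool 2 and exposed pool 3. With *Olfr594*, 4 of the 5 were high in 1 control and 1 exposed pool, so their values overlap between conditions.

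Per exon length, the high values were of a size that can be set against *Olfr151* in the same library. In TPM, which divides counts by exon length and by the library's sum, they lay between 1.95 and 48.5% of the *Olfr151* value, with a median of 9.53% over 33 values. Such ratios depend on the annotated exon lengths and were lower in counts. Summed over all members, the ratio in TPM was 54.7, 10.4 and 62.8% for controls, 46.9 and 208% after exposure. In counts it was 21.6, 3.34 and 22.5% for controls, 18.5 and 68.5% after exposure. If each sorted cell gave the same amount, 1 cell of 200 would be 0.5% and 1 cell of 400 would be 0.25%. In bulk RNA, fewer cells of a type and less RNA per cell cannot be told apart. *Olfr570* in exposed pool 3 was the highest of the 33 values, at 48.5% in TPM. It was followed by *Olfr549* at 37.6% and *Olfr632* at 24.8% in the same library, and *Olfr557* in control pool 1 stood at 20.9%.

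*Olfr549* was the only member with more than 3 counts in all 5 libraries. Controls had 85, 46 and 44 counts of it, against 110 in exposed pool 1 and 8379 in exposed pool 3. Both exposed values lay above all controls, but the 2 exposed pools differed far more from each other than exposed pool 1 did from the controls.

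High members lay along the whole cluster, on both sides of the beta-globin genes. Before the globin genes there were 91 members, of which 13 reached 1000 counts in some library, and after them 65, of which 15 did. In steps of 500 kb from the first member, 5, 6, 4, 3, 6 and 4 members reached 1000 counts, of 37, 29, 33, 15, 21 and 21 present. On the plus strand there were 19 of them and on the minus strand 9.

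**Figure D3:**
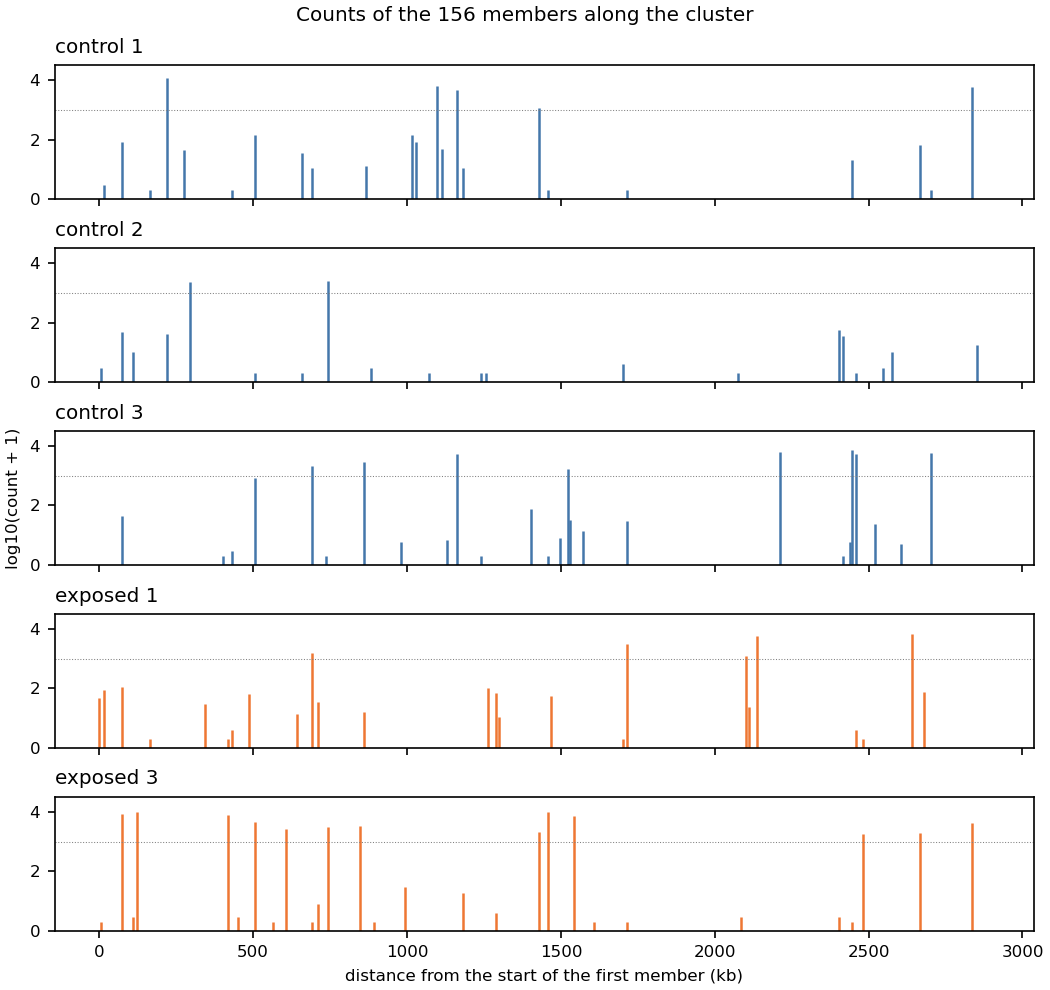
Counts of all 156 members as log10(count + 1) (y axis) against the distance from the start of the first member (x axis, kb), with 1 panel per library and a dotted line at 1000 counts. The tall lines stand at different places in each library, and control pool 2 has 2 of them against 13 in exposed pool 3.

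Few other genes of the interval had counts. Of 75 genes without an Olfr name, 14 had more than 3 counts in some library. A list of globin, Trim and Ubqln genes, with *Rrm1* and *Stim1*, held 21 genes, of which 19 lie within the cluster, while *Rrm1* and *Stim1* lie just before its first member. Of the 19, 3 were tested and 0 were called in either direction. The beta-globin gene *Hbb-bs* gave 9667, 3372 and 385 counts for controls, 428 and 155 after exposure. The summed CPM of 5 erythroid markers was 348, 108 and 13.0 for controls, 15.5 and 6.70 after exposure, with *Hba-a1* and *Hbb-bs* leading it.

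Whether exposure changed the cluster was tested first over all genes. The study kept a gene when all libraries of a condition reached a local minimum of the count density, which came to 141 counts when computed from these 5 libraries. With that limit, 10047 genes were tested by edgeR's quasi-likelihood test. Of these, 344 genes (3.42%) were called higher and 186 (1.85%) lower in exposed pools, at a Benjamini-Hochberg adjusted p under 0.1 and a log2 fold change above 0.5 in size. No member passed that filter, so 0 of 156 were tested there. With the next lower minimum of 61 counts, chosen after seeing the data, *Olfr549* alone was tested and was not called (edgeR adjusted p 0.109). With at least 10 counts in at least 2 libraries, 15671 genes were tested, of which 162 (1.03%) were called higher and 74 (0.472%) lower. Of the members, 13 passed, of which 0 were called by edgeR. An unadjusted p under 0.05 was found for 3 of the 13, against 13.7% of all genes tested. DESeq2 called 1 higher and 1 lower, against 5.35% and 5.86% of all genes. Single pools decided these calls under the 141-count filter. Without exposed pool 1, 13 members passed and 8 were called higher, each of them high in exposed pool 3, against 0.892% of all genes. Without exposed pool 3, 5 passed and 3 were called higher, each high in exposed pool 1, against 1.02% of all genes. Without control pool 2, 2 passed and 1 (*Olfr622*) was called lower, with an edgeR adjusted p of 0.00793, against 0.629% of all genes. Members passed through the pools in which they were high, so these counts support no direction.

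The median log2 fold change of the 13 members was 1.21, or 1.21 with the 2 members at 0 in all exposed pools set at the limit of 3 counts per library, against -0.02 over all genes tested. Members passed through the library in which they were high, so this median supports no direction. *Olfr549* had a log2 fold change of 6.33 (SE 1.63) with an edgeR adjusted p of 0.202, and 1.02 with an adjusted p of 0.812 without exposed pool 3. DESeq2 called it higher, with an adjusted p of 0.00281. *Olfr622* was at least 1035-fold lower in exposed pools, taking the mean of the controls against 3 counts per library, with an edgeR adjusted p of 0.324. DESeq2 called it lower, with an adjusted p of 0.0207, and with this filter edgeR did so without control pool 2 (adjusted p 0.0723), against 0.0401% of all genes. Control pool 2 itself had 0 counts of *Olfr622*, as both exposed pools did. The gene passed the filter through control pools 1 and 3 alone, so its fold change and these calls support no direction.

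In raw counts, not scaled for library size, both exposed libraries lay above all controls for 5 of the 79 members with a count (6.33%). They lay below all controls for 0 members. Lying below takes a count in every control pool, and most values of members were 0, so this 0 supports no direction. Over all 26883 genes with a count the shares, likewise from raw counts, were 8.56% above and 13.1% below. The members' share above thus lies near that of all genes. The 5, named because they are few, were *Olfr549*, *Olfr570*, *Olfr670*, *Olfr592* and *Olfr69*. After exposure *Olfr592* gave 33 and 7 counts, *Olfr69* 67 and 3, with 0 in all controls for both. For *Olfr570* and *Olfr670* the value in exposed pool 1 was 1 count.

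Summed over the members, the cluster reached 693, 102 and 809 CPM for controls, 448 and 1594 CPM after exposure. Means were 535 ± 380 CPM for controls (SD, n = 3), 1021 ± 810 CPM after exposure (SD, n = 2). The difference of 486 CPM was within the spread of the libraries (exact two-sided permutation test, p = 0.5, adjusted p = 0.75 over 6 tests), and 3 against 2 libraries cannot go below p = 0.1. Without exposed pool 3 the difference was -86.8 CPM. The conditions overlapped, with the lowest value in a control and the highest in an exposed pool.

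Of the OR counts other than *Olfr151*, the members took 35.5% (Wilson interval at 95%, 35.2 to 35.9) for control pool 1, 16.2% (15.8 to 16.6) for pool 2, 61.0% (60.6 to 61.4) for pool 3. After exposure they took 25.4% (25.1 to 25.7) for pool 1, 54.1% (53.9 to 54.4) for pool 3. These intervals cover counting error only, and libraries of the same condition lay far outside one another's. The mean share was 37.6 ± 22.5% (SD, n = 3) for controls, 39.8 ± 20.3% (SD, n = 2) after exposure, a difference of 2.17 percentage points (exact two-sided permutation test, p = 0.9, adjusted p = 0.9). It was -12.2 points without exposed pool 3 and -8.52 points without control pool 2.

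More than 3 counts were found for 17, 9 and 20 members for controls, 19 and 16 after exposure. The means were 15.3 ± 5.69 (SD, n = 3) and 17.5 ± 2.12 (SD, n = 2), with p = 0.9 in the exact two-sided permutation test, and the difference of 2.17 members became -1.0 without control pool 2. At or above 0.5% of the *Olfr151* TPM there were 5, 2 and 9 members for controls, 5 and 13 after exposure, with means of 5.33 ± 3.51 (SD, n = 3) and 9.0 ± 5.66 (SD, n = 2). That difference of 3.67 members had p = 0.5 in the same exact test and was -0.33 without exposed pool 3. *Olfr151* was itself lower in both exposed pools, which lowers this threshold there.

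**Figure D4:**
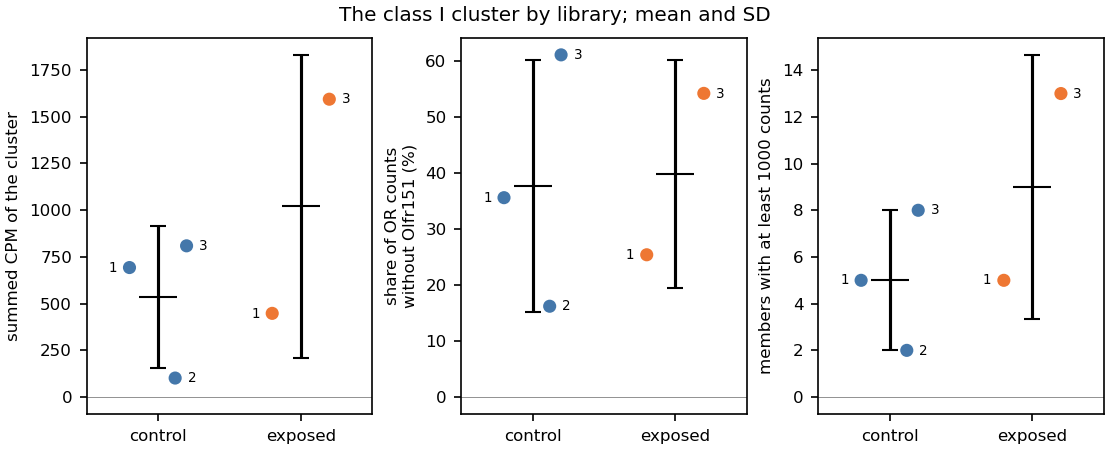
Summed CPM of the members, their share of OR counts without *Olfr151* (percent) and the number of members with at least 1000 counts (y axes) in control and exposed pools, with 1 numbered point per library and the mean and SD as a bar with whiskers. The conditions overlap in all 3 panels, and exposed pool 3 is the highest point for CPM and number of members, at 1594 and 13.

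Within each library, the members were set against the 1250 OR genes outside the cluster other than *Olfr151*. At 1000 counts or more, a limit chosen after seeing the data, the members stood at 3.21, 1.28 and 5.13% for controls, 3.21 and 8.33% after exposure. The OR genes outside stood at 0.8, 0.32 and 0.4%, then 0.48 and 1.36%. The members' percentage was higher in 5 of 5 libraries, by 3.56 points on average, with p = 0.063 in the exact two-sided sign-flip permutation test, the smallest that 5 libraries can give. In some library, 17.9% of the members reached 1000 counts against 3.04% of the OR genes outside, 3.14% of the large cluster on chromosome 2 (287 genes) and 3.28% of the cluster around *Olfr151* on chromosome 9 (122 genes).

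At more than 3 counts the picture was less even. The members stood at 10.9, 5.77 and 12.8% for controls, 12.2 and 10.3% after exposure, and the OR genes outside at 5.12, 8.16 and 4.48% and at 6.24 and 7.84%. The mean difference was 4.02 ± 4.16 points (SD, n = 5), with p = 0.125 in the exact two-sided sign-flip permutation test and an adjusted p of 0.375. It was positive in 4 of 5 libraries, the exception being control pool 2, where fewer members than OR genes outside were found.

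**Figure D5:**
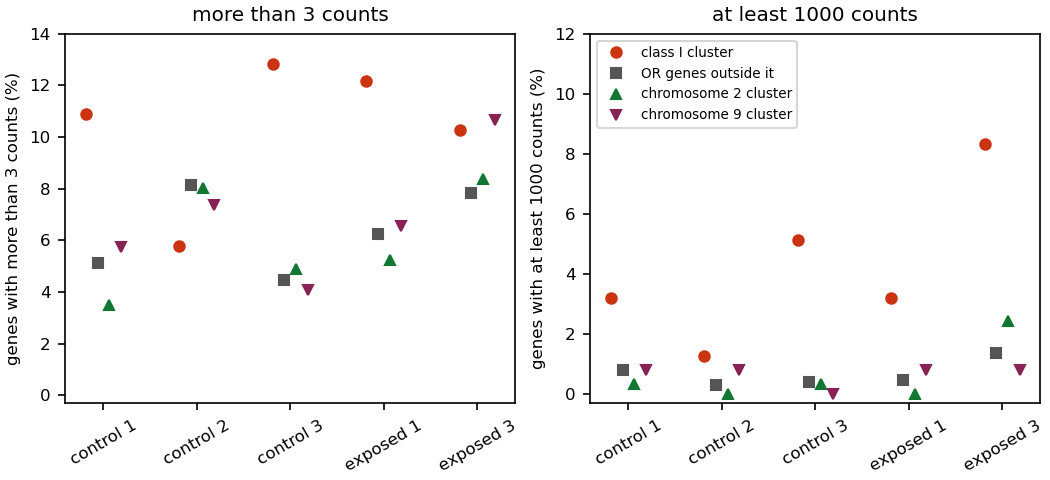
Percent of genes with more than 3 counts (left) and with at least 1000 counts (right) in each library (x axis), for the class I cluster, the OR genes outside it and the clusters on chromosomes 2 and 9. The class I cluster is the highest in all 5 libraries on the right, while on the left it lies under the other sets in control pool 2 and under the chromosome 9 cluster in exposed pool 3.

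Per gene, members had 4.44, 0.652 and 5.19 CPM for controls, 2.87 and 10.2 CPM after exposure, against 1.01, 0.421, 0.414, then 1.05 and 1.08 CPM for OR genes outside. The difference was 3.88 ± 3.40 CPM (SD, n = 5) and positive in 5 of 5 libraries, with p = 0.063 in the exact two-sided sign-flip permutation test, the smallest possible, and an adjusted p of 0.375. Per exon length it was 4.26 TPM. Without exposed pool 3 it was 2.57 CPM.

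Markers of position and of receptor choice were read beside the cluster, from lists that hold no member. The calls given for them rest on both exposed pools: without exposed pool 1 none of the 8 genes called was called any more, and without exposed pool 3 *Rtp1* alone was. *Nqo1*, a marker of dorsal neurons, was called lower in exposed pools, with 2660, 2194 and 2682 CPM for controls, 1363 and 1473 CPM after exposure, a log2 fold change of -0.83 (SE 0.13) and an edgeR adjusted p of 0.0292. *Acsm4*, also dorsal, had 1275, 1458 and 1367 CPM, then 1112 and 1267 CPM, and was not called. The ventral markers *Ncam2* and *Nfix* together stayed between 9.57 and 19.6 CPM in every library, against 2475 to 4049 CPM for the dorsal pair. The dorsal pair was thus far above the ventral pair in all 5 libraries. The 10 markers of mature olfactory neurons summed to 60604, 64961 and 61541 CPM for controls, 51823 and 52762 CPM after exposure, so that both exposed pools lay below all controls. Of the 10, 4 were called lower (*Cnga2*, *Cnga4*, *Cngb1* and *Rtp1*), 0 higher and 6 were not called, against 1.85% lower and 3.42% higher of all genes. Markers of sustentacular cells, the supporting cells of the epithelium, lay between 69.2 and 260 CPM.

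Of 17 genes of receptor choice and expression, 3 were called lower, 0 higher and 14 were not called, against 1.85% lower and 3.42% higher of all genes. *Rtp1* and *Adcy3* are also on the list of mature neuron markers, so the lists are not independent. *Rtp1*, which helps receptors reach the membrane, had 1738, 1929 and 2004 CPM for controls, 842 and 955 CPM after exposure, a log2 fold change of -1.07 (SE 0.13, edgeR adjusted p 0.00989). *Ebf4*, of a family of factors that bind OR promoters, had a log2 fold change of -1.17 (SE 0.18, edgeR adjusted p 0.0262). *Ldb1*, a cofactor that joins OR enhancers, had 101, 91.1 and 32.5 CPM for controls, 15.8 and 19.1 CPM after exposure (edgeR adjusted p 0.0984). With at least 10 counts in at least 2 libraries *Ldb1* was no longer called (edgeR adjusted p 0.202).

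*Bcl11b*, which favours class II choice, had 114, 104 and 63.1 CPM for controls, 23.1 and 46.5 CPM after exposure, a log2 fold change of -1.43 (SE 0.40) that was not called (edgeR adjusted p 0.127). The 4 immature neuron markers summed to 171, 162 and 204 CPM for controls, 453 and 316 CPM after exposure, and of them *Gap43*, a growth cone protein, was called higher (edgeR adjusted p 0.0891) while 3 were not called. With at least 10 counts in at least 2 libraries *Gap43* was not called (edgeR adjusted p 0.165). Myeloid markers summed to 144, 17.6 and 15.1 CPM for controls, 118 and 33.8 CPM after exposure. The part of these markers in the values of the cluster was not tested.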

How the data were processed

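Fluorescent neurons of 3 control and 2 exposed pools were sequenced, and pools were grouped by the labels. The authors mapped reads with STAR 2.7.0a to GRCm38 and deposited raw counts per gene from featureCounts 1.6.3, strand ignored and multi-mapping reads left out. No molecular identifiers were used. Members and gene lists were chosen with earlier results of these data known. Genes were named through GENCODE M21 (55144 of 55411). Counts were tested in R 4.3.3 with edgeR 4.0.16 (TMM, robust quasi-likelihood) over all genes, with DESeq2 1.42.0 as an alternative, after a check on simulated counts. Values per library were compared with exact permutation tests in Python 3.11.15. Coding sequences of 850 to 1100 bases were aligned with MAFFT 7.526, and 50-base runs were compared over OR transcripts. Named members were the 10 with the highest count, the highest of each library, those above 3 counts in all libraries and those that passed the main filter (none). Alternatives were other tools, scalings, filters and thresholds, a replicate block and each library left out. Other members were named after their values were seen. No libraries of a condition agreed within sampling noise. Per the labels, the work ran over 3 days with 4 mice of either condition a day. Which pool belongs to which day is not given in the sources used here, and p-values measure the spread between pools.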

Additional observations from a re-analysis of the deposited data

How the results depend on the processing

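The 530 genes called over all genes became 1493 with DESeq2, 142 with ERCC scaling, 236 with at least 10 counts in at least 2 libraries, 280 at an adjusted p under 0.05, and 112 to 786 when 1 library was left out. Under ERCC scaling, the median over all genes was -0.23 on the log2 scale. Among genes with at least 10 counts in at least 2 libraries, a filter chosen after seeing the data, 0 members were called by edgeR, 2 by DESeq2 and 0 to 1 without 1 library. With the filter of the main test, 8 of 13 members tested were called higher without exposed pool 1 and 3 of 5 without exposed pool 3, and 1 of 2 was called lower without control pool 2. Without an exposed pool, the lone other one is assumed to vary like the controls. The share of the cluster in OR counts differed by -0.066 points without the highest OR gene of each library. Leaving out 1 library gave -86.8 to 1059 CPM for the sum, -12.2 to 16.6 points for the share, -1.0 to 4.5 members above 3 counts and -0.33 to 7.67 members above 0.5% of *Olfr151*. Pool numbers are shared by conditions but are not shown to pair the samples (correlations of deviations 0.055 and -0.082). The deviations of 2 exposed pools from their mean are equal and opposite. The 2 correlations are thus not separate checks and cannot decide whether pools were paired. With the pool number as a replicate block, 11 genes were called higher and 0 lower, so that none of *Nqo1*, *Rtp1*, *Ebf4*, *Ldb1*, *Cnga2*, *Cnga4* and *Cngb1* was called, nor was *Gap43* (edgeR adjusted p 0.291). With 5 libraries the block leaves little from which to estimate the spread, and control pool 2 has no exposed counterpart here. Calls lost with it need not mean that a difference is absent. None of these 8 genes was called under ERCC scaling. There the lower ones had log2 fold changes from -0.77 (*Cnga4*) to -2.22 (*Ldb1*), all larger in size than in the main fit, and *Gap43* had 0.71. ERCC counts were 274768, 123087 and 149652 for controls, 236737 and 131000 after exposure, so this scale itself varied within conditions. *Gap43* was lost without any 1 of the control pools, *Ldb1* without control pool 1 or 2, *Cnga4* without pool 2 or 3 and *Cngb1* without pool 2. With at least 10 counts in at least 2 libraries *Cnga4*, *Cngb1*, *Ldb1* and *Gap43* were lost. With the replicate block, the share differed by -8.52 points and the members above 3 counts by -1.0. The 2 exposed pools limit every comparison of conditions, and members at 0 counts may be present below 3 counts.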

Other observations

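The large OR cluster on chromosome 2 also had its most high genes in exposed pool 3. Of its 287 genes, 7 reached 1000 counts there, against 1, 0 and 1 for controls (pools 1, 2, 3) with 0 for exposed pool 1. It took 16.9% of the OR counts other than *Olfr151* in exposed pool 3 and 1.06 to 3.44% in the other 4 libraries. The cluster around *Olfr151* on chromosome 9 took 14.9, 10.2 and 1.24% for controls, 12.0 and 2.49% after exposure (pools 1, 3).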
